A study of Pan troglodytes with 217 samples.

Results

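The genes described here are 10 transcription factors of core and naive pluripotency: POU5F1, NANOG, SOX2, KLF17, KLF4, KLF5, PRDM14, TFCP2L1, ARGFX and SPIC. They were taken as a list of names, set with earlier results of these data known, and all 10 matched 1 chimpanzee Ensembl identifier each among the 33729 identifiers in the count table. The cells came from day 4 chimpanzee (Pan troglodytes) blastoids, which are blastocyst-like structures made from naive induced pluripotent stem cells (iPSCs). Those naive iPSCs had been expanded in N2B27 with EPZ-6438, an inhibitor of the histone methyltransferase EZH2, together with PD032590, XAV939, Gö6983, LIF, Activin-A and IL6. Blastoids then formed in PD032590, A83-01, LPA and Y-27632, next without PD032590, and last in N2B27 alone. Each cell became its own full-length SMART-seq2 library. The labels give all cells 1 condition and name no blastoid, cell line or batch for any of them, so the cells form 1 sample, no cell is a replicate, and no test was computed. After 24 cells with fewer than 8000 detected genes were left out, the kept cells had a median of 3960857 reads and 11270 genes.

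The kept cells were clustered with the 10 factors left out, and the clusters were named from lists of other genes. This gave 50 epiblast-like cells, 32 hypoblast-like cells, and trophectoderm-like clusters of 72 and 39 cells. SPP1, GDF3 and FGF4 were among the leading genes of the epiblast-like cells, and RSPO3, PDGFRA and GATA4 led the hypoblast-like cells. OLR1, RGS13 and EMP2 led the larger trophectoderm-like cluster, and CGA, PTPRE and MUC15 were among the leading genes of the smaller. GATA3 was at 10 CPM or more in every trophectoderm-like cell. Median depth was close in the 3 classes, at 3951119, 3978823 and 3960857 reads. The mural trophectoderm had been excised and dissociated apart, and the labels do not say which cells came from it, so class sizes describe the cells sequenced and not the blastoid.

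Markers were not exclusive to a class. At least 3 of the 10 listed trophectoderm genes reached 10 CPM in 29 epiblast-like cells and in 24 hypoblast-like cells. Their summed level was 114.6 to 3195 CPM in epiblast-like cells (median 692), 278.6 to 3680 in hypoblast-like cells (median 912) and 1984 to 11823 in trophectoderm-like cells (median 4877). At least 3 listed hypoblast genes did so in 31 hypoblast-like, 5 epiblast-like and 6 trophectoderm-like cells, and at least 3 listed epiblast genes in 46 epiblast-like, 17 hypoblast-like and 5 trophectoderm-like cells. IFITM1 of the epiblast list reached 10 CPM in every cell of the 3 classes, so it counts toward these 3 genes in each cell. The same counts are used below where cells with markers of another class are left out. No cell had 3 of the 5 listed genes of amnion, of the 8-cell stage or of primitive streak. Doublets were not called, and the part of such cells in the results was examined only by leaving them out.

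In the mammalian embryo, POU5F1, NANOG and SOX2 form the core circuit that holds epiblast cells pluripotent, and they bind each other's regulatory regions. KLF4, KLF5, KLF17, TFCP2L1 and PRDM14 belong to the naive state, the in vitro counterpart of the preimplantation epiblast. Trophectoderm separates first from the inner cell mass, which later divides into epiblast and hypoblast, and the factors are lost from these lineages to different degrees.

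Levels are given in CPM, a gene's count scaled to 1000000 reads on all genes. A class level pools the reads of its cells and has an exact 95% Poisson interval. A factor was called present in a cell at 10 CPM or more, and shares have exact 95% Clopper-Pearson intervals. Both intervals cover counting error only, since amplified copies of a molecule cannot be told from separate molecules. Values were not divided by transcript length, so levels are compared between classes for 1 gene and not between genes.

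**Figure D1:**
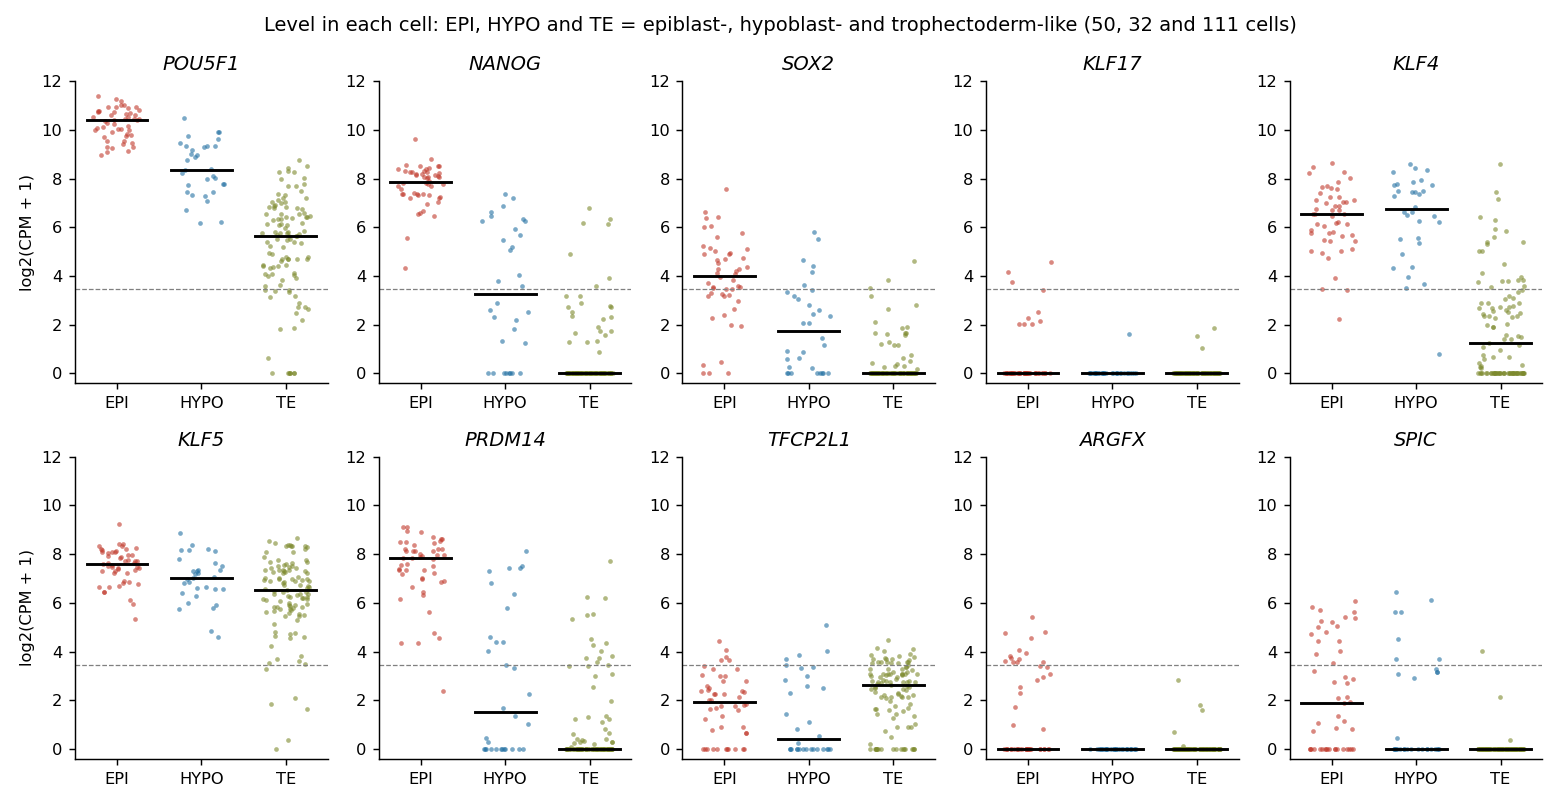
Level of each factor in each cell, as log2(CPM + 1), in epiblast-like (EPI), hypoblast-like (HYPO) and trophectoderm-like (TE) cells. Points are cells, black bars are medians over cells, and the dashed line is 10 CPM. Medians of POU5F1 step down over the 3 classes (1332, 328 and 49.1 CPM), NANOG and PRDM14 spread from 0 into the epiblast-like range in hypoblast-like cells, KLF4 is high there too, and KLF5 is present in nearly all cells.

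POU5F1, which encodes OCT4, ranged over epiblast-like cells from 501 to 2707 CPM, with a median of 1332. In hypoblast-like cells it ranged from 71.3 to 1415 CPM, with a median of 328. In trophectoderm-like cells it ranged from 0 to 428 CPM, with a median of 49.1. The lowest epiblast-like cell thus lay above the highest trophectoderm-like cell, while the hypoblast-like cells overlapped both. Of the 10 factors POU5F1 was the 1 with such a gap, and of the 15561 genes with a read in at least 20 cells it was also the 1 that had it (0.00643%). The pooled levels were 1341 CPM (1336 to 1346), 447 CPM (443 to 451) and 71.2 CPM (70.5 to 71.9), so that hypoblast-like cells had 33.3% and trophectoderm-like cells 5.31% of the epiblast-like level. POU5F1 was nevertheless present in 89 trophectoderm-like cells (80.2%, 71.5% to 87.1%). POU5F1B, a near-identical copy to which the counting could move reads of POU5F1, stood at 0.158% of the POU5F1 level in epiblast-like cells and at 0.146% and 0.201% in the other classes.

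NANOG, a homeobox factor that marks epiblast against hypoblast in the inner cell mass, was present in every epiblast-like cell (100%, 92.9% to 100%), from 19.3 to 788 CPM with a median of 228.6. Hypoblast-like cells divided evenly: 16 of 32 had it (50%, 31.9% to 68.1%), 8 had no read, the median was 8.81 CPM, and the highest reached 162.6 CPM. Trophectoderm-like cells had a median of 0, and 7 had it (6.31%, 2.57% to 12.6%). The classes overlapped, since the highest hypoblast-like and trophectoderm-like cells reached the epiblast-like range. The pooled levels were 243.7 CPM (241.6 to 245.8), 32.9 CPM (31.9 to 33.9) and 3.64 CPM (3.48 to 3.81). In hypoblast-like cells 3 cells carried 41.7% of the reads, and in trophectoderm-like cells 3 carried 62.5%.

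SOX2, the HMG-box partner of OCT4, was the sparsest of the core trio. It was present in 33 epiblast-like cells (66%, 51.2% to 78.8%), 6 hypoblast-like cells (18.8%, 7.21% to 36.4%) and 3 trophectoderm-like cells (2.703%, 0.561% to 7.696%). Its epiblast-like range was 0 to 187.7 CPM with a median of 15.1, and 3 cells had no read. Hypoblast-like cells reached 54.2 CPM around a median of 2.46, and trophectoderm-like cells 23.8 CPM around a median of 0, so all classes overlapped. Pooled SOX2 was at 23.4 CPM (22.8 to 24.1), 6.93 CPM (6.48 to 7.40) and 0.689 CPM (0.620 to 0.765).

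PRDM14, a PR-domain protein that represses differentiation genes, had a pattern close to that of NANOG. It was present in 49 epiblast-like cells (98%, 89.4% to 99.9%), from 4.22 to 560 CPM with a median of 228.6. Of the hypoblast-like cells 12 had it (37.5%, 21.1% to 56.3%), around a median of 1.87 CPM and with a highest value of 280.1 CPM, and 3 cells carried 56.3% of the reads. Of the trophectoderm-like cells 15 had it (13.5%, 7.77% to 21.3%), around a median of 0 and up to 211.4 CPM. The classes overlapped, but the epiblast-like median was passed by 1 hypoblast-like cell and by 0 trophectoderm-like cells. Pooled PRDM14 was at 232.5 CPM (230.5 to 234.6), 40.5 CPM (39.4 to 41.6) and 4.66 CPM (4.48 to 4.85).

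KLF4, a Krüppel-like factor used in reprogramming, covered the same range in hypoblast-like as in epiblast-like cells. It ranged from 3.77 to 396 CPM in epiblast-like cells with a median of 92.02, and from 0.732 to 385 CPM in hypoblast-like cells with a median of 105.4. It was present in 48 and 31 cells of these classes (96%, 86.3% to 99.5%, and 96.9%, 83.8% to 99.9%). The pooled hypoblast-like level of 136.2 CPM (134.2 to 138.3) was 122.02% of the epiblast-like level of 111.6 CPM (110.2 to 113.07). This order turned when cells with at least 3 markers of another class were left out, at 81.1 CPM over 4 hypoblast-like cells against 120.1 CPM over 21 epiblast-like cells. In trophectoderm-like cells KLF4 had a median of 1.41 CPM, a highest value of 382 CPM and a pooled level of 14.4 CPM (14.1 to 14.7), and 23 cells had it (20.7%, 13.6% to 29.5%).

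KLF5, a Krüppel-like factor of both inner cell mass and trophectoderm, was the least restricted. Every epiblast-like and hypoblast-like cell had it, as did all but 6 of the trophectoderm-like cells (94.6%, 88.6% to 97.99%). Medians were 194.8, 130.2 and 91.5 CPM, over ranges of 39.7 to 607, 23.5 to 468 and 0 to 407 CPM, and the cells of all classes overlapped. The pooled levels were 200.5 CPM (198.6 to 202.4), 141.2 CPM (139.2 to 143.3) and 112.2 CPM (111.3 to 113.1), or 1.42-fold and 1.79-fold higher in epiblast-like cells than in the others.

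TFCP2L1, a CP2-family factor of the naive network, was low in every class and was not highest in epiblast-like cells. Reads were found in 39, 17 and 93 cells of the classes, but 10 CPM was reached in 5 (10%, 3.33% to 21.8%), 4 (12.5%, 3.51% to 28.99%) and 21 (18.9%, 12.1% to 27.5%). The medians were 2.82, 0.324 and 5.15 CPM and the highest cells 20.6, 33.02 and 21.6 CPM, so all classes overlapped. The pooled levels were 4.19 CPM (3.92 to 4.47), 4.40 CPM (4.05 to 4.78) and 5.93 CPM (5.72 to 6.14). In hypoblast-like cells TFCP2L1 ranked with the number of detected genes (Spearman rho 0.53 over 32 cells), whose part in its values was not tested.

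KLF17, a naive marker of primate cells, was the rarest factor. Reads were found in 10 epiblast-like cells, and 3 of them reached 10 CPM (6%, 1.25% to 16.5%), at 22.9, 16.8 and 12.4 CPM. A single hypoblast-like cell had reads, at 2.11 CPM, and 3 trophectoderm-like cells did, at most at 2.66 CPM. The median was 0 in every class. The pooled epiblast-like level was 1.48 CPM (1.32 to 1.65), with 61.1% of its reads in 3 cells, against 0.0389 CPM from 5 reads and 0.0484 CPM from 25 reads in the other classes.

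ARGFX, a PRD-class homeobox gene of primate preimplantation embryos, had reads in 23 epiblast-like cells and reached 10 CPM in 13 (26%, 14.6% to 40.3%), at most 41.8 CPM. None of the 32 hypoblast-like cells had a read, for which the limit of 3 counts allows 3 cells (9.38%) and the exact interval up to 10.9%, and 5 trophectoderm-like cells had reads, at most at 6.24 CPM. ARGFX reads were thus found almost entirely in epiblast-like cells, but in fewer than 50% of them. Pooled ARGFX was at 5.77 CPM (5.45 to 6.10), 0 (at most 0.0287 CPM) and 0.103 CPM (0.0769 to 0.134).

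SPIC, an ETS-family factor, was by contrast found in both inner cell mass classes. It was present in 17 epiblast-like cells (34%, 21.2% to 48.8%), 7 hypoblast-like cells (21.9%, 9.28% to 39.97%) and 1 trophectoderm-like cell (0.901%, 0.0228% to 4.92%). The medians were 2.73 CPM, 0 and 0, with single cells up to 67.4, 86.4 and 15.5 CPM. The first 2 classes overlapped over their whole range. The pooled SPIC levels were 12.6 CPM (12.2 to 13.1), 9.62 CPM (9.09 to 10.2) and 0.0910 CPM (0.0669 to 0.1210). In epiblast-like cells 19 of the 23 cells with an ARGFX read (82.6%) also had a SPIC read, which is 59.4% of the 32 cells with SPIC. KLF17 shared 6 of its 10 cells with ARGFX and 8 with SPIC.

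**Figure D2:**
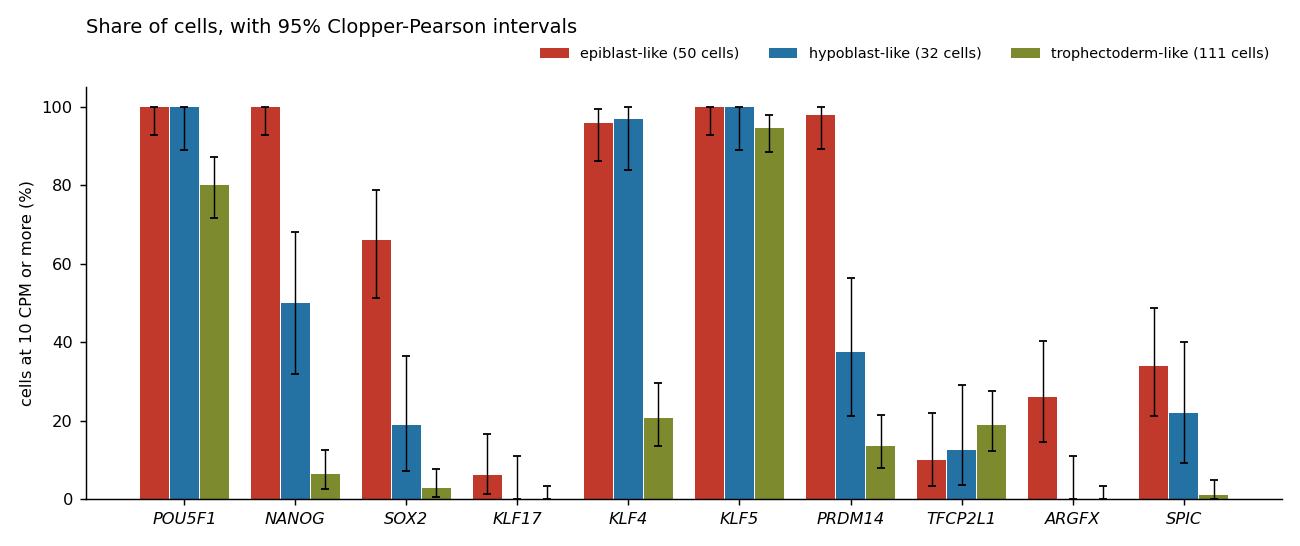
Percent of cells at 10 CPM or more for each factor in each class, with exact 95% Clopper-Pearson intervals over cells. The classes are close for KLF5 (94.6% to 100%) and TFCP2L1 (10% to 18.9%), epiblast-like and hypoblast-like cells are close for KLF4, and NANOG, SOX2 and PRDM14 step down from class to class.

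Shares were also taken at equal depth. With each cell thinned to 2532312 reads, which left 48, 25 and 100 cells, NANOG was present in 100%, 52% and 5% of the classes, SOX2 in 68.8%, 20% and 3%, and PRDM14 in 97.9%, 32% and 13%. POU5F1 was then present in 100%, 100% and 83%, and TFCP2L1 in 12.5%, 20% and 18%. The share of TFCP2L1 in hypoblast-like cells was 12.5% over all cells, of which 7 shallower ones were left out here, and SPIC was present in 0 of the trophectoderm-like cells kept. The other 28 of 30 shares of a factor in a class changed by less than 1.5 times.

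To set the factors beside all genes, the same rules were applied to the 15561 genes with a read in at least 20 cells. At 10 CPM or more in at least 50% of epiblast-like cells were 6 of the 10 factors (POU5F1, NANOG, SOX2, KLF4, KLF5 and PRDM14), against 47.2% of all genes. In hypoblast-like cells 4 factors passed (POU5F1, NANOG, KLF4 and KLF5), against 43.9% of genes, and NANOG did so at exactly 50%. In trophectoderm-like cells POU5F1 and KLF5 passed, against 43.4% of genes. These shares are near the background or below it.

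Folds between classes were read in the same way. Over all these genes the median log2 fold was 0.12 for epiblast-like over trophectoderm-like cells, 0.20 for epiblast-like over hypoblast-like cells and -0.05 for hypoblast-like over trophectoderm-like cells. Of the 10 factors 9 had a read in at least 20 cells. KLF17 did not. ARGFX and SPIC passed only because of their epiblast-like cells, with reads in 5 and 16 cells outside that class, so counts that include them are no support. Pooled CPM was at least 4-fold higher in epiblast-like than in trophectoderm-like cells for 7 of the 9, against 11.5% of all genes. Among the 7 factors with a read in at least 20 cells outside the epiblast-like class, 5 were that much higher (POU5F1, NANOG, SOX2, KLF4 and PRDM14), against 7.97% of the 14273 such genes. The folds were 138.9 for SPIC, 66.9 for NANOG, 56.2 for ARGFX, 49.9 for PRDM14, 33.97 for SOX2, 18.8 for POU5F1 and 7.77 for KLF4, and KLF17, counted apart, stood at 30.6. A single cell held 74.5% of the trophectoderm-like reads of SPIC and 54.7% of those of ARGFX, and without that cell the folds were 541.7 and 122.99. No factor was 4-fold lower (5.75% of genes were).

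Hypoblast-like cells exceeded trophectoderm-like cells at least 4-fold for 6 of the 9, against 6.42% of genes. Among the 7 factors with a read in at least 20 cells outside the epiblast-like class, 5 did (the 6 without SPIC), against 4.92% of genes. The folds were 105.7 for SPIC, 10.06 for SOX2, 9.48 for KLF4, 9.02 for NANOG, 8.68 for PRDM14 and 6.28 for POU5F1. Without the highest trophectoderm-like cell that of SPIC was 412.4. ARGFX was lower, at no more than 0.227 of the trophectoderm-like level when its count of 0 was set to 3 reads over the class (7.62% of genes were 4-fold lower). Without the highest cell of each class its log2 fold was -0.98 in place of -2.14, which is less than 4-fold.

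Between epiblast-like and hypoblast-like cells fewer factors differed at that size. NANOG was 7.42-fold higher in epiblast-like cells, PRDM14 5.745-fold, and ARGFX at least 247.1-fold against 3 reads, that is 3 of the 9 against 9.06% of all genes. With a read in at least 20 cells outside the epiblast-like class they were 2 of 7 (NANOG and PRDM14), against 6.01% of genes. SOX2 followed at 3.38-fold, or 4.76-fold without the highest hypoblast-like cell, and POU5F1 at 3.00-fold, whereas SPIC was at 1.31, TFCP2L1 at 0.951 and KLF4 at 0.820. None was 4-fold lower (2.98% of genes were). By medians over cells in place of pooled reads, 6 were 4-fold or more higher (POU5F1, NANOG, SOX2, PRDM14, TFCP2L1 and SPIC). ARGFX, at a median of 0 in both classes, gave no value. TFCP2L1 thereby turned, from a log2 fold of -0.07 to 3.12. SPIC went from 0.39 to 6.87, but its hypoblast-like median was 0 and was set to 3 reads over the whole class (0.0233 CPM). That value is fixed by the setting for 0, so the call of SPIC is no support. Between hypoblast-like and trophectoderm-like cells the log2 fold of TFCP2L1 was -3.99 by medians and -0.43 pooled. Leaving out cells with at least 3 markers of another class kept 21 epiblast-like and 4 hypoblast-like cells. The number of factors past 4-fold was then again 3, but not with the same members. The log2 fold of PRDM14 fell from 2.52 to 1.66, below 4-fold, and that of SOX2 went from 1.76 to 2.55, above it. Some levels moved over 1.5 times as well. In epiblast-like cells KLF17 was then at 2.84 CPM and ARGFX at 9.10 CPM. In the 4 hypoblast-like cells PRDM14 was at 82.2 CPM, KLF4 at 81.1 CPM, TFCP2L1 at 2.31 CPM and KLF17 at 0. In trophectoderm-like cells NANOG was at 1.98 CPM, KLF4 at 8.42 CPM, PRDM14 at 2.78 CPM and SPIC at 0.0242 CPM.

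**Figure D3:**
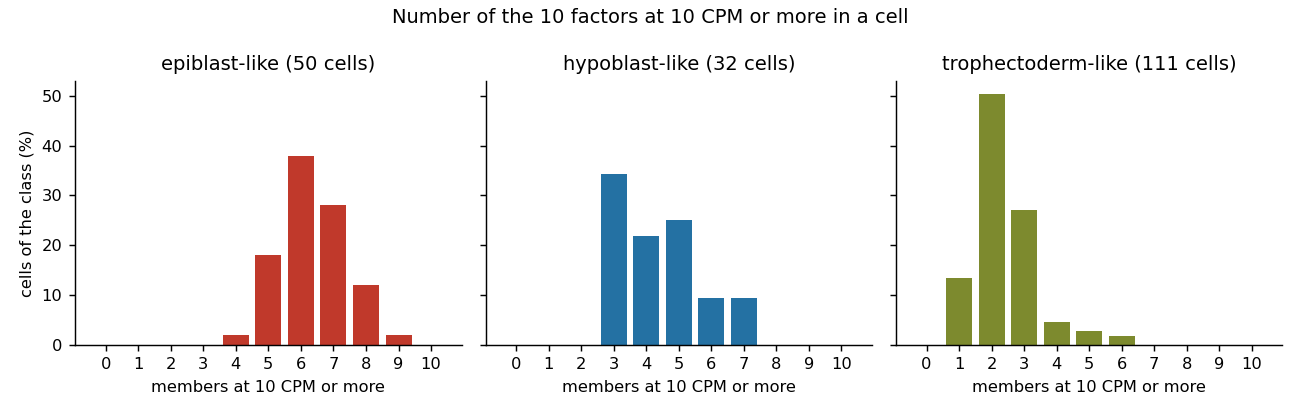
Number of the 10 factors at 10 CPM or more in a cell, as percent of the cells of each class. Epiblast-like cells had 4 to 9 factors (median 6), hypoblast-like cells 3 to 7 (median 4) and trophectoderm-like cells 1 to 6 (median 2).

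Single cells combined the factors in different numbers. Epiblast-like cells had 4 to 9 of the 10 factors and 40 cells had 6 or more, whereas 6 hypoblast-like and 2 trophectoderm-like cells did. POU5F1, NANOG and SOX2 were present together in 33 epiblast-like cells (66%, 51.2% to 78.8%), in 5 hypoblast-like cells (15.6%, 5.28% to 32.8%) and in 0 trophectoderm-like cells, for which the limit of 3 counts allows 3 cells (2.703%) and the exact interval up to 3.27%. SOX2 set the epiblast-like share, since POU5F1 with NANOG occurred in all 50 cells. POU5F1, NANOG, PRDM14, KLF4 and KLF5 were together in 47 epiblast-like cells (94%, 83.5% to 98.7%), 10 hypoblast-like cells (31.25%, 16.1% to 50.01%) and 4 trophectoderm-like cells (3.60%, 0.990% to 8.97%).

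NANOG and PRDM14 were present together in 11 hypoblast-like cells, out of 16 with NANOG and 12 with PRDM14. In trophectoderm-like cells they were together in 5, out of 7 with NANOG and 15 with PRDM14. GATA3 was present in those trophectoderm-like cells as in all others of the class. The share with the core trio depended on the threshold. At 1 CPM it was 90% of epiblast-like cells, 43.75% of hypoblast-like cells and 9.01% of trophectoderm-like cells.

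How the factors varied from cell to cell was described by Spearman rho of log2(CPM + 1) within a class, over factors with a read in at least 50% of its cells. The cells share 1 sample and the values of a cell share its depth, so rho is a description. In 50 epiblast-like cells, POU5F1 ranked with NANOG (rho 0.51) and NANOG with PRDM14 (0.47), while POU5F1 with PRDM14 was at 0.28. A rho of 0.5 or more was found with POU5F1 for 0.638% of genes and with NANOG for 0.159%, and 1 of the 28 pairs of factors reached it. SPIC stood at 0.36 with both NANOG and PRDM14 and at 0.34 with TFCP2L1, and SOX2 at 0.32 with KLF4. KLF5 had no rho above 0.17 with another factor, and was at -0.19 with POU5F1. Over all 28 pairs of 8 factors the median rho was 0.14 and 22 pairs were positive, against a median of -0.003 and 49.2% positive for these factors with 11286 other genes.

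**Figure D4:**
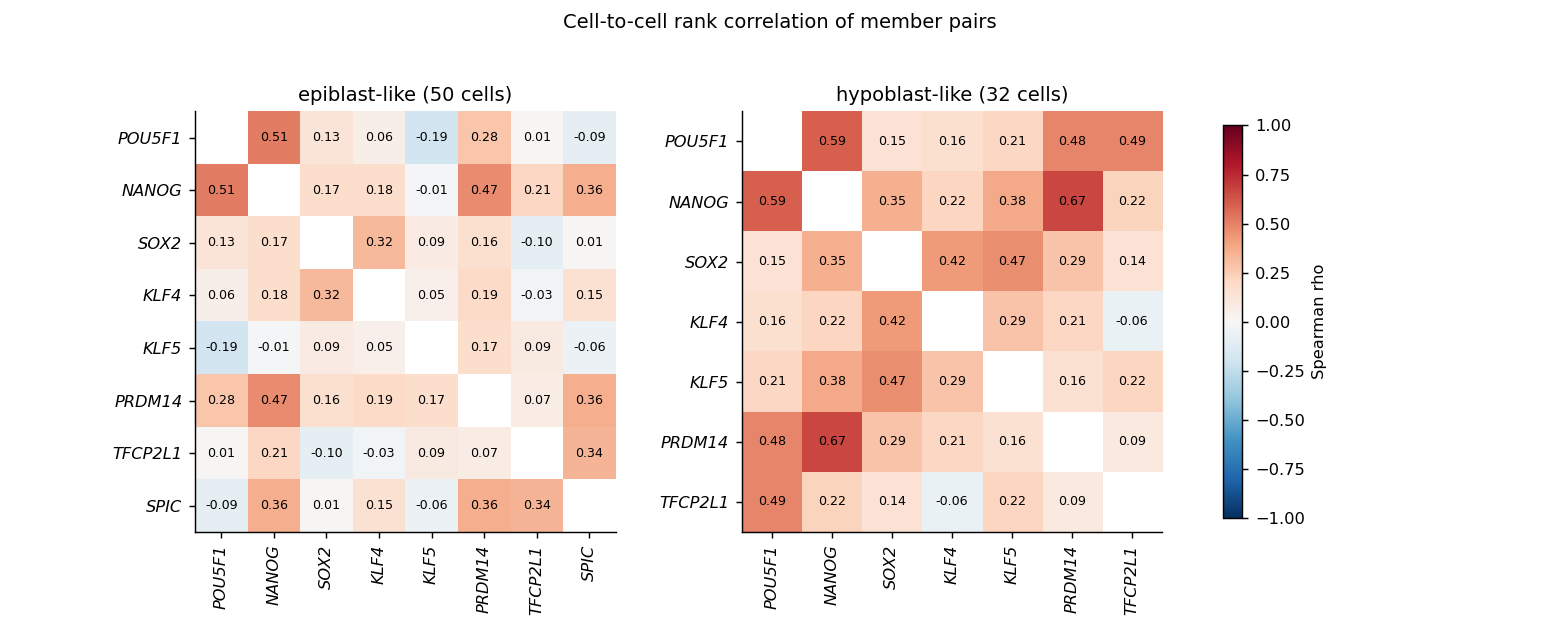
Spearman rho of log2(CPM + 1) for each pair of factors over 50 epiblast-like cells (left) and 32 hypoblast-like cells (right), on a colour scale of rho. POU5F1 with NANOG and NANOG with PRDM14 stand highest in the left map (0.51 and 0.47) and also in the right map (0.59 and 0.67).

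In 32 hypoblast-like cells POU5F1 with NANOG was at 0.59, NANOG with PRDM14 at 0.67 and POU5F1 with PRDM14 at 0.48. A rho of 0.5 or more was found with POU5F1 for 2.6% of genes and with NANOG for 1.45%. SOX2 ranked with KLF5 (0.47) and KLF4 (0.42) and less with POU5F1 (0.15). The median over 21 pairs of 7 factors was 0.22 and 20 pairs were positive, against 0.02 and 54.1% positive for the factors with 10423 other genes. Among trophectoderm-like cells the median over 6 pairs of 4 factors was 0.08 and 4 pairs were positive. With 10443 other genes these factors had a median of 0.008 and 52.1% positive. Over 5 other settings the median of the pairs was -0.03 to 0.14, so its sign is not settled. KLF4 with KLF5 was at -0.27. With the number of detected genes, POU5F1 and NANOG were between -0.10 and 0.15 in epiblast-like and hypoblast-like cells. SOX2 (-0.40) and KLF4 (-0.34) ran opposite to it in epiblast-like cells, and its part in the rho between them was not tested.

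POU5F1 and NANOG were lower in hypoblast-like cells with more hypoblast genes. These cells had from 2 to 10 of the 10 listed hypoblast genes at 10 CPM or more, with a median of 6.5, and rho with that number was -0.65 for POU5F1 and -0.55 for NANOG. It was -0.48 for TFCP2L1, -0.42 for SOX2, -0.40 for KLF5, -0.27 for PRDM14, -0.23 for SPIC and -0.07 for KLF4. No share over all genes is given for this rho. POU5F1 had a negative rho with all 10 genes, from -0.65 for LAMA1, a laminin chain, to -0.38 for BMP2, with -0.60 for RSPO3, FOXA2 and PDGFRA. The median was -0.55, against 0.05 over 11050 other genes, of which 41.8% were negative. LAMA1 was also high in trophectoderm-like cells, at 319 CPM against 166.7 CPM in hypoblast-like cells.

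NANOG was negative with all 10 hypoblast genes too, at a median of -0.47 (46.9% of other genes were negative), from -0.63 for FOXA2, a forkhead factor of endoderm, to -0.25 for PDGFRA. SOX2, KLF5 and PRDM14 were negative with all 10, at medians of -0.32, -0.36 and -0.25, where 45.7%, 49.3% and 46.1% of other genes were negative. TFCP2L1 and SPIC were negative with 9, at -0.41 and -0.23, where 36.8% and 48.1% of other genes were. KLF4 was negative with 5 and positive with 5, and 54.99% of other genes were negative. With the 5 genes of the epiblast list that had a read in at least 40% of these cells the picture was mixed. POU5F1 was positive with 3 of 5 (median 0.48, from -0.31 to 0.67), NANOG with 3 (median 0.16, from -0.40 to 0.62) and SOX2 with 4 (median 0.31, from -0.24 to 0.60). Of other genes 41.8%, 46.96% and 45.8% were negative with these factors. The highest value of each was with GDF3, a TGF-beta ligand, and the lowest with USP44. USP44 was not higher in epiblast-like cells, at 5.17 CPM against 7.03 CPM in hypoblast-like cells. The hypoblast genes helped to name the cluster, while the 10 factors entered neither the clustering nor the naming.

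**Figure D5:**
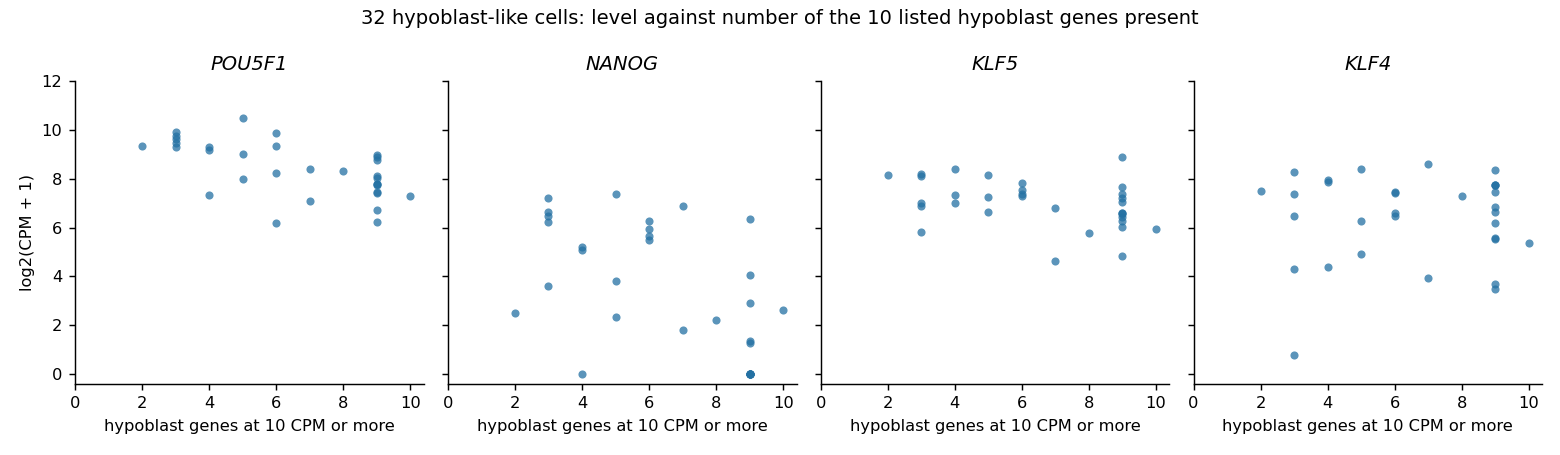
Level of POU5F1, NANOG, KLF5 and KLF4 as log2(CPM + 1) against the number of the 10 listed hypoblast genes at 10 CPM or more, with 1 point per hypoblast-like cell (32 cells). POU5F1 and NANOG decrease to the right (rho -0.65 and -0.55), KLF5 less (-0.40), and KLF4 hardly (-0.07).

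In epiblast-like cells NANOG, PRDM14, POU5F1, ARGFX and SOX2 ran weakly against the trophectoderm list. NANOG was negative with 9 of its 10 genes at a median of -0.21, PRDM14 with 9 at -0.15, and POU5F1 with 7 at -0.17, with the lowest value for GATA3 (-0.47), where 49.4%, 47.4% and 46.6% of other genes were negative. ARGFX was negative with 8 of the 10 (median -0.23), SOX2 with 8 (-0.16), KLF4 with 7 (-0.11), SPIC with 5 (-0.01), and KLF5 and TFCP2L1 with 4 each (0.04 and 0.001). For these 6 factors 55.2%, 60.5%, 59.5%, 53.2%, 47.2% and 44.4% of other genes were negative. The counts of KLF4, SPIC, KLF5 and TFCP2L1 are thus near their background. GATA3, a trophectoderm factor, was at 10 CPM or more in 20 epiblast-like cells, and POU5F1 was present in every one. With the 7 genes of the epiblast list that had a read in at least 40% of these cells PRDM14 was positive for 6 (median 0.25), from -0.07 for USP44 to 0.51 for FGF4, the ligand that epiblast sends to hypoblast precursors. SOX2 was positive with all 7 (median 0.21), NANOG with 5 (0.11), POU5F1 with 5 (0.08), ARGFX with 4 (0.05), SPIC with 3 (-0.03), TFCP2L1 with 2 (-0.13), and KLF4 and KLF5 with 1 each (-0.12 and -0.19). Of other genes 47.5% were negative with PRDM14, 60.5% with SOX2, 49.5% with NANOG, 46.6% with POU5F1, 55.3% with ARGFX, 53.2% with SPIC, 44.3% with TFCP2L1, 59.5% with KLF4 and 47.2% with KLF5.

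Between the trophectoderm-like clusters no Krüppel-like factor differed 4-fold both with and without its highest cells. KLF4 was at 4.94 CPM (4.69 to 5.19) in the cluster of 72 and 29.4 CPM (28.7 to 30.2) in that of 39, and 7 against 16 cells had it. Median depth differed too, at 3670477 reads in the larger and 4646868 in the smaller cluster. With cells thinned to equal depth KLF4 was present in 7.94% and 37.8% of them. Without its highest cell, at 382 CPM, the smaller cluster was at 17.3 CPM, and the larger was at 0.285 of that level in place of 0.168, which is less than 4-fold lower. KLF5 ran the other way, at 156.4 CPM (155.003 to 157.76) against 41.8 CPM (40.9 to 42.7), or 3.74-fold. Over both clusters KLF5 was negative with 5 of the 10 trophectoderm genes and positive with 5 (median 0.01, 54.9% of other genes negative). The highest values were with KRT18 (0.51), a keratin, and CDX2 (0.47), a trophectoderm homeobox gene. The lowest were with VGLL1 (-0.51) and TEAD3 (-0.49). These values include the difference between the clusters.

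POU5F1 was at 85.95 CPM (84.9 to 86.98) against 47.7 CPM (46.7 to 48.6). Over both clusters it was positive with 7 of the 10 trophectoderm genes (median 0.05, 49.2% of other genes negative), from -0.46 for VGLL1 to 0.43 for HAND1. These values too include the difference between the clusters. NANOG was at 4.35 and 2.52 CPM, but it was present in 3 cells of the larger cluster (4.17%, 0.868% to 11.7%) and 4 of the smaller (10.3%, 2.87% to 24.2%), and without its highest cell the larger was at 2.58 CPM. PRDM14 was at 3.44 and 6.61 CPM, or 4.26 CPM in the smaller without its highest cell, and TFCP2L1 at 6.87 and 4.43 CPM. With all cells KLF4 was at least 4-fold lower in the larger cluster (4.4% of genes were), a call that rests on 1 cell. SPIC had 1 read in the larger cluster and 46 reads in 2 cells of the smaller, too few for a ratio, and no factor was 4-fold higher (4.27% of genes were).

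A wider list of 16 further genes of the pluripotency network gave a mixed picture. Of 14 with a read in at least 20 cells, 8 were at least 4-fold higher in epiblast-like than in trophectoderm-like cells (KLF2, NR5A2, DPPA2, DPPA3, DPPA4, DPPA5, FOXD3 and UTF1) and 2 were lower (TBX3 and ZFP42), against 11.5% and 5.75% of all genes. Against hypoblast-like cells DPPA2, DPPA4, FOXD3 and UTF1 were higher and TBX3 and ESRRB lower, against 9.06% and 2.98% of genes. FOXD3 passed the minimum of 20 cells through its 28 epiblast-like cells, with reads in 5 other cells, so it could not but differ. NR0B1 had no read in the kept cells, and TCL1A had reads in 4 epiblast-like and 5 trophectoderm-like cells. The highest ratios of epiblast-like to all other cells were those of FOXD3, a forkhead repressor (2.25 against 0.0558 CPM), UTF1, a chromatin factor of undifferentiated cells (168.5 against 10.0 CPM), and DPPA4 (55.5 against 3.92 CPM). The lowest were those of TBX3, a T-box factor (18.5 against 137.5 CPM), ZFP42, a zinc finger gene also known as REX1 (23.01 against 101.05 CPM), and the orphan nuclear receptor ESRRB (2.03 against 6.58 CPM).

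Over all kept cells, likeness to a factor was taken as Spearman rho among 12779 genes with a symbol, and these values include the differences between classes. For POU5F1 the nearest genes were CRIPTO (rho 0.85), its copy POU5F1B (0.85) and DPPA5 (0.84). The counting could move POU5F1 reads to that copy, and the part of such reads in its rho was not tested. For NANOG they were UTF1 (0.86), RCBTB1 (0.84) and DPPA5 (0.83). For PRDM14 they were NANOG (0.83), UTF1 (0.82) and HEY2 (0.78), and PRDM14 was the 1 factor with another of the 10 in first place. SOX2 was nearest to UTF1 (0.77), CXCL12 (0.76) and CRIPTO (0.75), and KLF4 to RRAD (0.75), UTF1 (0.73) and HSPB1 (0.72). UTF1 was thus among the first 3 genes of NANOG, PRDM14, SOX2 and KLF4.

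KLF5 was nearest to RNF125 (0.66), CXADR (0.63) and PITPNC1 (0.62), and SPIC to GGT5 (0.63), OAS1 (0.63) and ART5 (0.62). TFCP2L1 had no near gene, with SNX4 (0.38), NAA50 (0.38) and SNX2 (0.37) first. Within the 50 epiblast-like cells POU5F1 was nearest to POU5F1B (0.75, with the limit given above), H3-3A (0.70) and TRIM26 (0.68), and NANOG to MORF4L1 (0.64) and BCL2L1 (0.60). For the other factors the first gene there was at 0.53 to 0.65.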

How the data were processed

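The read counts are the authors' deposited table: whole, unnormalized counts of reads per gene for 217 cells, with no molecular identifiers. The paper's methods give FastP trimming and STAR counting on the chimpanzee genome, whereas the submitters' processing notes list Trim Galore 0.6.6, STAR 2.7.7a and a human build. The identifiers are chimpanzee ones. Symbols were matched for 18783 of them, and identifiers that share a symbol were summed. Of the cells, 193 passed the study's minimum of 4000 reads and 8000 detected genes, which is more than its methods state were left, for a reason not found here. Clustering used log values at a common total, 50 principal components, 30 neighbours and the Leiden method at resolution 1 (Scanpy 1.11.5, leidenalg 0.10.2, seed 0), over genes with a read in at least 20 cells. A cluster was named by the marker list with the highest mean standardized level, given at least 3 of its genes at 1 CPM, which put 111 cells in the trophectoderm-like class.

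CPM, folds and Spearman rho were computed with numpy 2.4.6, pandas 2.3.3 and scipy 1.17.1 under Python 3.11.15, and tested on simulated data. A group with 0 reads was set to 3 reads for a bound. TDGF1 of the epiblast list is named CRIPTO in the symbol table and did not enter the naming. The factors and lists were chosen with earlier results of these data known. Named genes are all factors, the wider-list genes with the 3 highest and 3 lowest ratios, the 3 genes nearest each factor with reads in at least 50% of kept or of epiblast-like cells, and markers that check a class. For 6 factors the nearest genes within epiblast-like cells are given by rho only, and 1 nearest gene of NANOG is not reported here. Alternatives covered the cell filter, the clustering, the summary over cells, the thresholds, depth and the correlation measure. Sequences and gene positions were not used here.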

Additional observations from a re-analysis of the deposited data

Results flagged for a closer look

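The 24 cells left out for fewer than 8000 detected genes entered no comparison. They are given because 7 factors were present in them at 10 CPM or more in over 3 of the 24 cells (12.5%), the limit of 3 counts set for a count of 0, which is no test. POU5F1 was present in 83.3% of these cells, KLF5 in 79.2%, PRDM14 in 45.8%, SOX2 in 37.5%, NANOG in 33.3%, KLF4 in 29.2% and TFCP2L1 in 20.8%. KLF17 had a read in 0 of the 24. These cells had a median of 1660767 reads and were put in no class.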

How the results depend on the processing

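Under 7 other cell filters and clusterings 0 of the cells in common changed class. Of the alternative values of the summary results 14 moved by more than 1.5-fold, the 95% interval or 0.2 of rho, and 0 reversed. By the same limits 58 of 403 fold values, 34 of 330 levels and 63 of 360 shares of single factors moved. They came mostly from medians over cells (15 folds, 17 levels), from leaving out cells with other markers (17 folds, 10 levels, 5 shares) and from the thresholds of 1 CPM, 1 read and 50 CPM (17, 21 and 19 shares). Under the 5 other clusterings and the stricter cell filter 0 moved. The share of cells with POU5F1, NANOG and SOX2 was 90% at 1 CPM, 94% at 1 read and 12% at 50 CPM in epiblast-like cells. In hypoblast-like cells it was 43.75%, 56.25% and 3.125%, and in trophectoderm-like cells 9.01% and 10.8% at 1 CPM and 1 read. The number of factors present in at least 50% of hypoblast-like cells was 7 at 1 read, and in trophectoderm-like cells 4 at 1 CPM, 4 at 1 read and 1 at 50 CPM. The number higher in epiblast-like than hypoblast-like cells was 6 by medians over cells and 5 at 2-fold. The 6 include SPIC through the setting for a median of 0, and the cause of the rest was not tested. Lower thresholds admit more cells by construction. Of 21 folds past 4-fold, 3 fell below it under an alternative chosen after seeing the data: PRDM14, ARGFX and KLF4 between the trophectoderm-like clusters, with values in the report. By medians over cells a median of 0 was set to 3 reads over the whole class, which then fixes the fold. There 6 such folds (of ARGFX, KLF17 and SPIC) gave no value because both medians were 0. Of the other folds 6 passed 4-fold under an alternative: POU5F1, SOX2, TFCP2L1 and SPIC in epiblast-like over hypoblast-like cells, TFCP2L1 (lower) in hypoblast-like over trophectoderm-like cells, and ARGFX between the trophectoderm-like clusters. The pass of SPIC is fixed by the setting for a median of 0 and is no support. Among the 4 hypoblast-like cells left without other markers ARGFX gave no bound.

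The 6 other correlation settings included thinning, deeper cells and the partial rho given detected genes. Another left out cells with at least 3 trophectoderm markers. That removed 29 of 50 cells from the epiblast-like class and 24 of 32 from the hypoblast-like class. The values of that setting thus rest on a minority of each class. Over all 6, POU5F1 with NANOG was 0.40 to 0.62 in epiblast-like and 0.48 to 0.62 in hypoblast-like cells. NANOG with PRDM14 was 0.42 to 0.66 and 0.61 to 0.76. The median rho with the hypoblast list, varied after seeing the data, was -0.58 to -0.44 for POU5F1 and -0.66 to -0.47 for NANOG. With 1 sample no replicate could be left out. No paired analysis was possible because the result comes from no test. Depth limits what an absence of KLF17 or ARGFX reads shows.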
